A study of Mus musculus with 24 samples.

Results

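The probes described here are the long intergenic noncoding RNA (lincRNA) probes of a mouse expression array, whose names begin with A_30_P. Of these, 16194 were named by a genomic region of mouse build mm9, with strand F at 8171 and strand R at 8010 of them, and 57 by a transcript. Of the 16251 probes in all, 6287 (38.7%) were well above background, by the mark of the scanner software, on every array of at least 1 of the 9 groups, and these 6287 are the members. A probe well above background is called detected below. Of the other 39430 probes of the array, 24074 (61.1%) passed the same criterion. The criterion can be met through 1 group alone, which was so for 676 members, 349 of them in LeGO-1.0/1.6. For a member that passed in this way the criterion favours a higher signal there. It does not require one, since the lowest detected log2 signal ran from 2.291 on LeGO-1.0/1.6 replicate 1 to 5.016 on siNEG +LH replicate 1. Counts are therefore also given over the 2959 members detected on all 24 arrays, which leaves 3328 members out. Groups of 2 arrays met the criterion more easily than groups of 3.

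The arrays were made from HC11 cells, a line of mouse mammary epithelial cells derived from a mid-pregnant BALB/c mouse, in which the lactogenic hormones hydrocortisone, insulin and prolactin (LH) induce milk protein genes. Undifferentiated cells (−LH) had been transfected with 10 nM of the control siRNA siNEG, of siPINC1.0/1.6 (siRNAs aimed at splice forms mPINC1.0 and mPINC1.6 of the RNA) or of siPINC (siRNAs against mPINC that also target the DCR2 form), with n = 2 cultures in each group. Hormone-treated cells (+LH) had received the same siRNAs, with n = 3 in each group. A further 3 groups of n = 3, all +LH, were transduced with lentivirus. The LeGO-GFP virus carried GFP, the LeGO-1.0/1.6 viruses carried the same 2 splice forms, and LeGO-DCR carried mPINC without its most conserved regions. The lentivirus groups were expanded after transduction and were not untreated cells, and every group was cultured from the same line. The paper describes transduced cells that were expanded and frozen in aliquots, and names no separate transductions for the cultures of a group. The spread among these cultures, and p-values from it, may therefore not cover differences between transductions. The question put by the design is how these RNAs differ when the hormones are added and when mPINC, a noncoding RNA of the pregnant mammary gland, is reduced or overproduced. In RNA of whole cultures, fewer cells of a type and less RNA per cell cannot be told apart.

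Long intergenic noncoding RNAs are transcribed outside protein-coding genes, mostly by RNA polymerase II, and many are spliced, of low abundance and restricted to particular cell types. Some act in the nucleus, where they scaffold ribonucleoprotein bodies, as NEAT1 does in paraspeckles, or bind chromatin-modifying complexes such as the Polycomb repressive complex. In the mammary gland, PINC was named for its rise in pregnancy, and prolactin signals there through the transcription factor STAT5 and hydrocortisone through the glucocorticoid receptor.

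The promoters of 3 transcripts on which the results turn are shown first, because their probes moved in opposite directions with the hormones: mPINC was lower, and NEAT2 (Malat1) and TUG1 were higher. The sequences are those of RefSeq on GRCm38.p6, a later build than the mm9 positions of the probes, and span the start of the gene, most of each lying upstream. Of 12 transcripts named on the array, 6 had such an entry. The Pinc promoter is chr1:73407520-73407819, that of Malat1 chr19:5802623-5802922 and that of Tug1 chr11:3648765-3649064, all on the minus strand. Capitals mark the letters TTCNNNGAA, the core of the site that STAT5 binds, which reads the same on both strands.
Pinc: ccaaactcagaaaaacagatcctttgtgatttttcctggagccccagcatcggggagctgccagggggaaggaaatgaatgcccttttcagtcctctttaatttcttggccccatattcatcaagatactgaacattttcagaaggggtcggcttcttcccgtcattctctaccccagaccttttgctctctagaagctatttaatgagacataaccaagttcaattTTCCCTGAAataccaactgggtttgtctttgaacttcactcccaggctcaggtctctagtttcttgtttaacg
Malat1: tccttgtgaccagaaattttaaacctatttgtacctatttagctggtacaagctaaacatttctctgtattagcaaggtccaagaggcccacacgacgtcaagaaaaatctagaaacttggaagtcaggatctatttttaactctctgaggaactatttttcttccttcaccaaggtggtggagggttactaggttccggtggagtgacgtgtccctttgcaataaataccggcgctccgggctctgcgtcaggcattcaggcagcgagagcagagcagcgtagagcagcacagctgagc
Tug1: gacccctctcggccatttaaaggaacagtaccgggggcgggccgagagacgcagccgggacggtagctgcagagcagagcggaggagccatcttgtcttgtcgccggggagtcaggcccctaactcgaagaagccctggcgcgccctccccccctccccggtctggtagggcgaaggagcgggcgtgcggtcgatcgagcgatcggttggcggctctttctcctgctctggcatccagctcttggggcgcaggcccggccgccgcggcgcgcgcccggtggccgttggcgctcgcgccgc
The Pinc promoter held TTCNNNGAA 1 time, and the Malat1 and Tug1 promoters held it 0 times. Of 32851 promoters of this length in the same table, 2726 (8.3%) held it. A match is a description of the letters and not of binding.

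Detection set the limit of what could be compared. The members had a median log2 signal of 5.5 over the arrays (interquartile range 4.47 to 6.96), against 8.36 (5.82 to 10.92) for the other probes that met the criterion. Signals of different probes are not amounts of different RNAs, so these values describe only how near the probes lay to background. Members named by a region fell in 2966 of the 4610 regions named on the array. Of 3920 regions with at least 2 probes, 587 had members at every probe, 2104 at some and 1229 at none. Regions that held a member had a median length of 11638 bases, against 8579 for those without. Per group, between 3620 (siPINC1.0/1.6 +LH) and 5179 (LeGO-1.0/1.6) members were detected on every array. The 3 −LH groups had 4804 to 5149 and the 3 +LH siRNA groups 3620 to 3891. These counts depend on the number of arrays and on the poorest array of a group. By array, siNEG +LH replicate 1, siPINC1.0/1.6 +LH replicate 3 and siPINC +LH replicate 2 had fewer detected A_30_P probes than any −LH array. The other +LH siRNA arrays lay within or above the −LH range. More detection without hormones was therefore not shown.

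On 1 array, LeGO-1.0/1.6 replicate 1, 8398 of the A_30_P probes were detected (51.7%), against 4021 to 6645 on the others, and 34 members were missing there as outlier spots. The arrays lay on 3 slides. Slide 1 held the 6 −LH arrays together with siNEG +LH replicate 1 and LeGO-GFP replicate 1, slide 2 held the other +LH siRNA arrays and slide 3 the other lentivirus arrays, so that the hormone comparison was mostly between slides. The epithelial markers Epcam, Cdh1, Krt8, Krt18, Krt5 and Krt14 were detected on all 24 arrays. Of the markers of other cells, Ptprc (leukocytes), Cdh5 (endothelium), Adipoq and Plin1 (adipocytes) were detected on every array of no group. Those for Cd3e, Csf1r, Pecam1, Kdr, Pdgfra and Fabp4 were detected on all 24 arrays, and the collagens Col1a1, Col1a2 and Col3a1 on at least 2 arrays of each group. Some of them moved with the groups: from LeGO-GFP to LeGO-1.0/1.6 the mean log2 signal of Fabp4 went from 9.64 to 13.31, of Col3a1 from 11.82 to 7.71 and of Krt5 from 14.52 to 11.76, and from siNEG −LH to siNEG +LH that of Krt5 went from 16.53 to 13.8 and of Col1a1 from 8.73 to 5.79. Their part in the results was not tested. The milk protein gene Csn2 had a mean log2 signal of 1.97 in siNEG −LH, 10.94 in siNEG +LH, 6.15 in the LeGO-GFP cultures, 1.9 with LeGO-1.0/1.6 and 6.48 with LeGO-DCR. Wap, another milk protein gene, was detected on no siNEG +LH array (2.35, and 2.01 in siNEG −LH). It had 4.81 in LeGO-GFP, 2.28 with LeGO-1.0/1.6 and 4.91 with LeGO-DCR. A further one, Ltf, had 7.66 in siNEG −LH and 9.64 in siNEG +LH. In the lentivirus groups it had 14.91 in LeGO-GFP, 10.6 with LeGO-1.0/1.6 and 15.04 with LeGO-DCR. A check of the targeted RNA follows.

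The 5 PINC probes, which detect the RNA that was targeted, were all members. The brightest of them, A_30_P01026751, had log2 signals of 7.36 and 7.64 in siNEG −LH. It had 6.03 and 6.32 with siPINC1.0/1.6 and 6.45 and 6.25 with siPINC. Every knockdown culture was below both controls. The difference was −1.33 ± 0.166 (SE) for siPINC1.0/1.6 (limma, adjusted p = 0.0474) and −1.15 ± 0.166 for siPINC (adjusted p = 0.221). Over the 5 probes the differences were −1.57 to −0.95 for siPINC1.0/1.6, where 1 was called, and −1.99 to −0.68 for siPINC, where 0 were. A PINC probe outside the A_30_P set, A_55_P2179186, differed by −1.11 (limma, adjusted p = 0.0366) and −1.17 (adjusted p = 0.147). With hormones A_30_P01026751 had 4.29, 4.76 and 5.15 in siNEG, 5.52, 5.37 and 4.73 in siPINC1.0/1.6, and 5.0, 4.87 and 4.77 in siPINC, and was detected on 2 of 3 arrays of each group. The groups overlapped, with differences from siNEG +LH of 0.47 for siPINC1.0/1.6 and 0.14 for siPINC. At A_30_P01021820 these were −0.37 and −0.11, the 3 other probes were detected on no +LH siRNA array, and none of the 5 was called. The knockdown in +LH cells could therefore not be seen with these probes. In the lentivirus groups A_30_P01026751 had 6.16, 6.02 and 5.85 in the LeGO-GFP cultures, 13.48, 13.51 and 13.39 with LeGO-1.0/1.6 and 6.18, 6.05 and 6.0 with LeGO-DCR. All 5 probes were higher in LeGO-1.0/1.6 than in LeGO-GFP. At A_30_P01021820, A_30_P01026751 and A_30_P01025451, the last detected on 2 of 3 LeGO-GFP arrays, the differences were 6.58, 7.45 and 7.89 on the log2 scale. A_30_P01018411 and A_30_P01021539 were detected on no LeGO-GFP array and were at least 133-fold and at least 176-fold higher. In LeGO-DCR the former 3 differed from LeGO-GFP by −0.13, 0.07 and −0.06, and none of the 5 was called. Where the 5 probes lie relative to the regions missing from the DCR form was not given in the sources used here, so they do not check the label of LeGO-DCR.

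**Figure D1:**
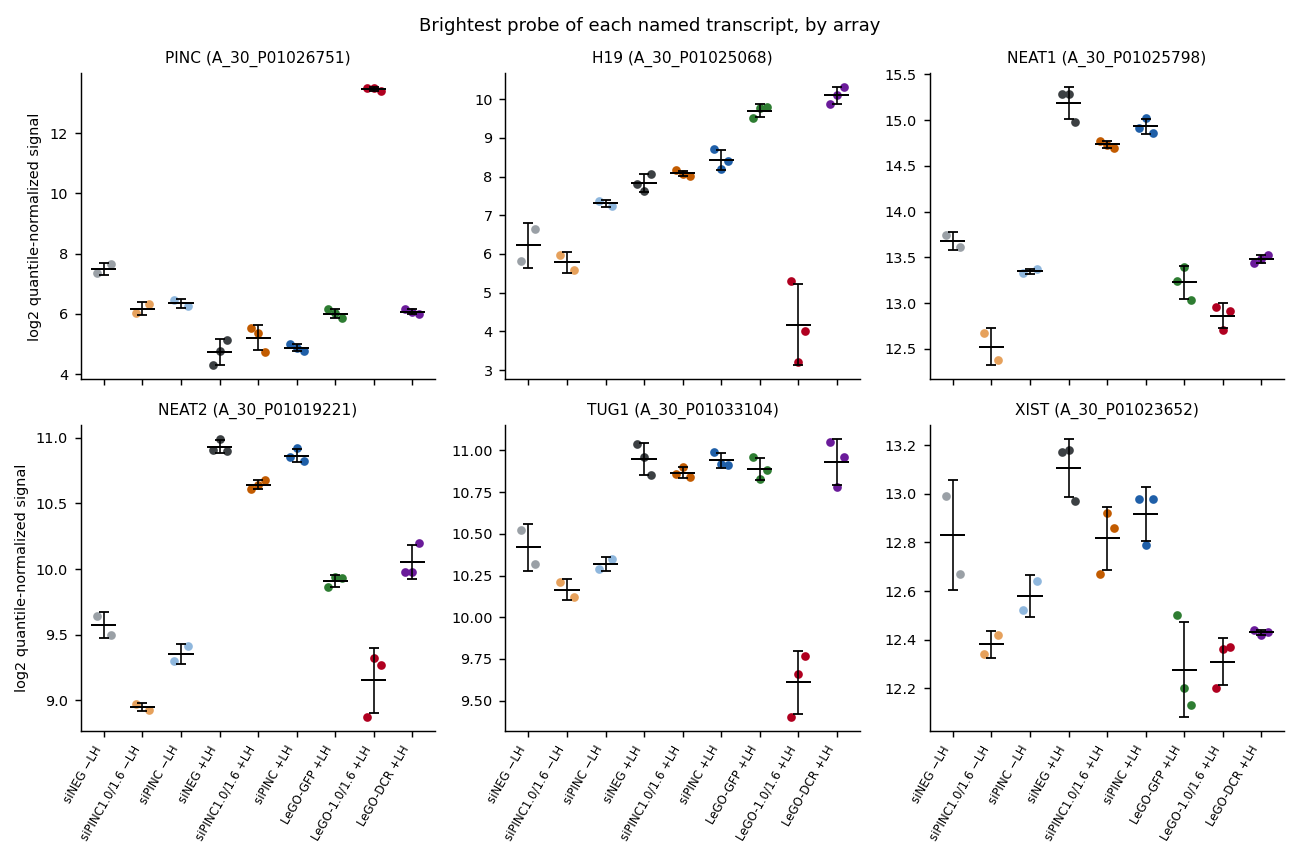
Log2 quantile-normalized signal of the brightest probe of PINC, H19, NEAT1, NEAT2, TUG1 and XIST (y axis) in the 9 groups (x axis). Points are single arrays, horizontal bars the mean and vertical bars ± SD (n = 2 for −LH groups, n = 3 for +LH groups); H19 lies at 3.22 to 5.31 in LeGO-1.0/1.6 and at 5.59 to 10.3 elsewhere.

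For the lactogenic hormones a smaller share of members than of the other detected probes was called, and a share near that of all probes. Comparing siNEG +LH with siNEG −LH, 1683 of 6287 members (26.8%) were called at a limma adjusted p under 0.05, where 52.6% of the other detected probes were called. Without the detection criterion 12.2% of all A_30_P probes and 27.1% of all 55681 probes were called. Of these members, 947 rose (all probes, 13.5%) and 736 fell (13.6%). Among the 2959 members detected on all arrays, 665 rose and 433 fell. The median log2 difference was −0.05 over members and 0.01 over all probes. In absolute size the median was 0.396 over members, 0.428 over the other detected probes and 0.333 over all probes. Within slide 1, against the single siNEG +LH array on it, 1243 were called, of which 537 rose. Without siNEG +LH replicate 1, which shared the slide of the −LH arrays, 1803 were called.

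At a given brightness, a smaller share of members than of other probes was called for the hormone response. Among members with a mean log2 signal up to 5, 15.4% were called, then 24.8% between 5 and 7, 40.8% between 7 and 9, 58.2% between 9 and 11 and 63.7% above 11. The corresponding shares of the other detected probes were 20.7, 39.7, 59.7, 67.9 and 67.4%. The share rose with brightness in both, and the members were mostly dim. With siPINC1.0/1.6 +LH the order was turned among bright probes, with 15.4% of members against 10.9% of other probes between 9 and 11 and 10.0 against 7.96% above 11. Members of the same region mostly moved together: of 402 regions with at least 2 called members, 384 had all of them in the same direction. These probes share their target, so that this is a check of the measurement and not an independent count.

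**Figure D2:**
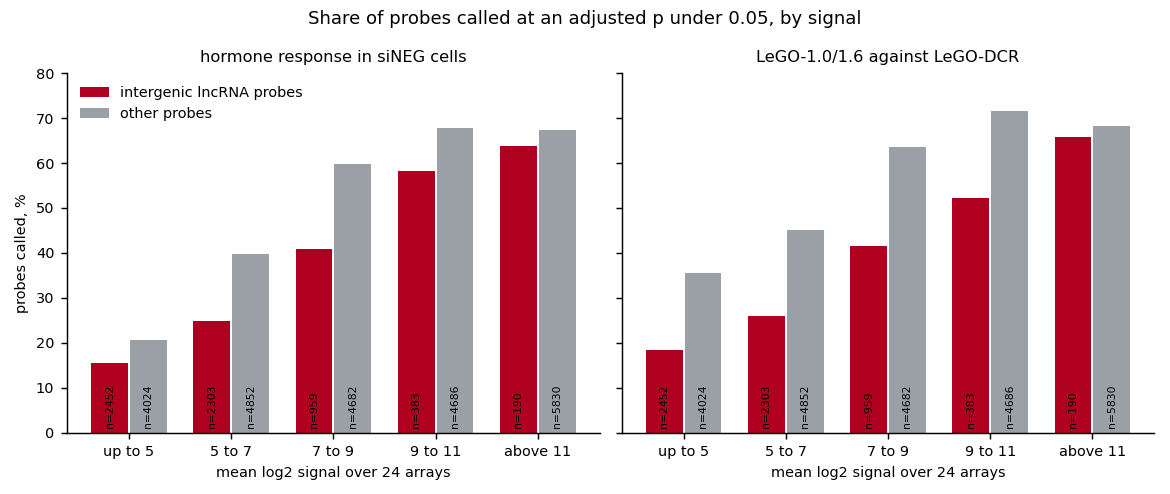
Percent of probes called (limma, adjusted p under 0.05; y axis, from 0) by class of mean log2 signal over the arrays (x axis), for members and for the other detected probes, in the hormone response and in LeGO-1.0/1.6 against LeGO-DCR. The members lie below the other probes in each class, from 15.4 against 20.7% to 63.7 against 67.4% for the hormone response.

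The largest rises with hormones were in regions that were at or near background in undifferentiated cells. A_30_P01025442 (chr4:119406384-119407856, F) had log2 signals of 4.4 and 2.77 in siNEG −LH, where 1 of 2 arrays detected it, and 9.21, 9.28 and 9.04 in siNEG +LH. The groups were far apart, with a difference of 5.59 ± 0.422 (limma, adjusted p = 2.17e-06). A_30_P01021165 (chr15:36800254-36809571, R) had 3.27 and 2.8 without and 8.48, 8.2 and 8.3 with hormones. It was not detected in siNEG −LH, and was at least 19.1-fold higher in siNEG +LH (adjusted p = 1.38e-09), where the bound sets the mean of the bright group against the lowest detected signal of each dim array, or the probe's own signal where that was higher. A_30_P01025315 of the same region was at least 11.4-fold higher. A_30_P01023533 (chr8:126268510-126290810, R) had 1.86 and 1.88 against 5.92, 6.57 and 5.85, which is at least 4.11-fold (adjusted p = 6.23e-08). In LeGO-GFP, which is also +LH, A_30_P01025315 had 6.27, 5.91 and 5.79. A_30_P01023533 had 4.23, 4.45 and 3.14 there, and 2 of 3 arrays detected it.

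The largest falls left regions undetected in siNEG +LH. A_30_P01020188 (chr15:74436455-74466741, R) had 7.71 and 7.65 in siNEG −LH and 3.03, 3.64 and 3.47 in siNEG +LH. It was detected on no siNEG +LH array and was at least 11-fold lower (limma, adjusted p = 8.04e-08). A_30_P01028855 (chr17:8718223-8949898, F) had 6.36 and 6.59 against 1.88, 1.88 and 1.88, at least 4.77-fold lower (adjusted p = 8.67e-06), and it was detected on the 6 −LH arrays and on none of the 18 +LH arrays. A_30_P01030879 (chrX:6982891-7008528, R) fell at least 4.05-fold, from 6.31 and 6.17 to 1.94, 2.91 and 1.94. A_30_P01031770 (chr18:70400082-70404236, R) fell from 5.26 and 5.11 to 1.9, 1.87 and 1.87, at least 1.95-fold, and 2 further probes of its region fell at least 1.96-fold and at least 2.86-fold. All 4 differences kept their side of the threshold when any 1 array was left out. In LeGO-GFP, which is also +LH, A_30_P01020188, A_30_P01030879 and A_30_P01031770 were detected on 3 of 3 arrays. Their mean log2 signals there were 7.09, 5.2 and 6.39.

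**Figure D3:**
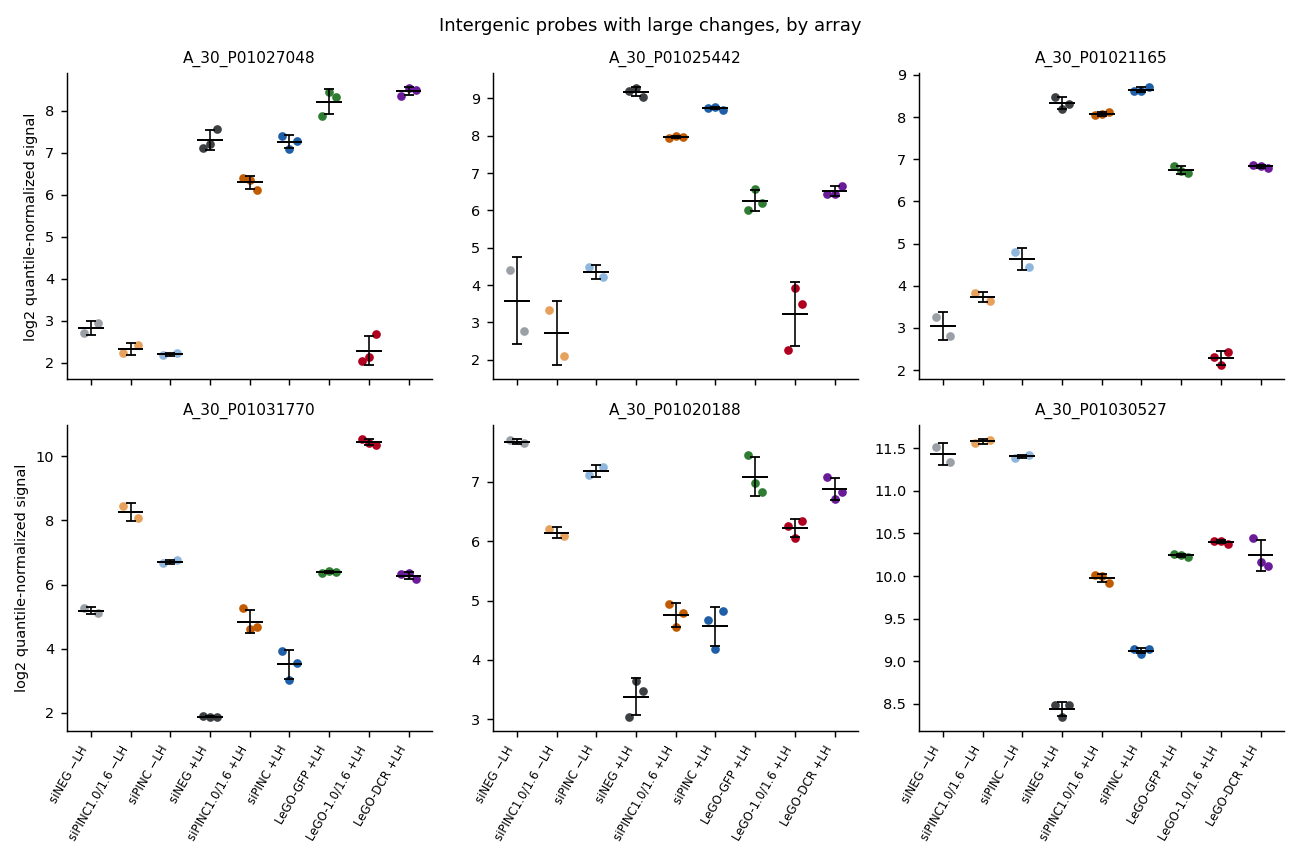
Log2 quantile-normalized signal (y axis) of 6 lincRNA region probes in the 9 groups (x axis), with points for arrays, horizontal bars for means and vertical bars for ± SD. A_30_P01027048, A_30_P01025442 and A_30_P01021165 are high in siNEG +LH (7.12 to 9.28) and low in LeGO-1.0/1.6 (2.04 to 3.91), while A_30_P01031770 runs the other way, at 1.87 to 1.9 and 10.36 to 10.53.

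The named transcripts responded in different ways. H19, an imprinted RNA abundant in embryonic tissues, rose at all 5 probes, by 1.3 to 1.85. Its brightest probe, A_30_P01025068, had 5.82 and 6.64 in siNEG −LH and 7.82, 7.62 and 8.07 in siNEG +LH, a difference of 1.61 ± 0.236 (limma, adjusted p = 0.000359), which within slide 1 was no longer called. NEAT1, the RNA of paraspeckles, rose at all 5 probes by 1.41 to 1.5, and A_30_P01025798 had 13.75 and 13.61 against 15.29, 15.28 and 14.98. NEAT2, or Malat1, an abundant RNA of nuclear speckles, rose at all 3 probes by 1.29 to 1.39, with 9.64 and 9.5 against 10.91, 10.99 and 10.9 at A_30_P01019221. These are increases of the whole group of probes with no overlap between the arrays. TUG1, first described as a retinal transcript, rose at all 5 probes by 0.5 to 0.55. Of its probes outside the A_30_P set, A_51_P119401 (0.57, adjusted p = 2.95e-05) and A_52_P599162 (0.3, adjusted p = 0.0496) also rose, and A_55_P2123716 did not pass the test (−0.18, adjusted p = 0.255).

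mPINC fell at 4 of its 5 probes, by 2.77 ± 0.268 at A_30_P01026751 (limma, adjusted p = 1.51e-05). A_30_P01021539, A_30_P01025451 and A_30_P01018411 were detected on no siNEG +LH array. The first was at least 2.32-fold and the second at least 3.19-fold lower than in siNEG −LH, and the last, detected on 1 of 2 siNEG −LH arrays, has no bound above 1. A_30_P01021820 did not pass the test (−0.76, adjusted p = 0.174). XIST, which coats the inactive X chromosome, was called at none of its 5 probes in any of the 10 comparisons. HOTAIR, transcribed from the HoxC cluster, was detected at 1 of 5 probes, which fell by 0.44 (adjusted p = 0.0312), a call lost without any 1 of the 5 arrays. NRON was detected at 2 of 5 probes, of which 1 rose (0.48, adjusted p = 0.0128). KCNQ1ot1, an antisense RNA of the Kcnq1 cluster, was detected at 1 of 5 probes and was not called. None of the probes for TSIX, lincP21 and BRN1-A met the detection criterion. The brightest members, which included A_30_P01031754 (chr19:5801802-5802597, R), had mostly smaller differences: that probe rose by 1.73 ± 0.183 (adjusted p = 2.88e-05), and the other 4 differed by −0.17 to 0.57.

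In undifferentiated cells the knockdowns gave few or no calls. With siPINC1.0/1.6, 142 members (2.26%) were called against siNEG −LH, where 5.56% of the other detected probes and 2.96% of all probes were, and 58 rose (all probes, 1.52%) and 84 fell (1.45%). With upper-quartile normalization the split was 9 up and 5 down, and with the series matrix values 9 up and 8 down. Leaving out siNEG −LH replicate 1 left 7 called, siNEG −LH replicate 2 left 0, siPINC1.0/1.6 −LH replicate 1 left 1 and replicate 2 left 0. With siPINC, 0 members were called, where 0.0% of all probes were called by limma, and 608 members had an unadjusted p under 0.05 (9.68% of all probes did). Leaving out 1 array gave 0 or 1. With n = 2 cultures, a change that missed the threshold was not shown to be absent.

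Among the 142, the 3 probes of chr18:70400082-70404236 rose. A_30_P01031770 had 5.26 and 5.11 in siNEG, 8.46 and 8.07 in siPINC1.0/1.6, and 6.67 and 6.76 in siPINC. Both siPINC1.0/1.6 cultures were above the siPINC cultures, which were above the controls. The difference was 3.08 ± 0.159 (limma, adjusted p = 0.0244) for siPINC1.0/1.6 and 1.53 ± 0.159 (adjusted p = 0.169) for siPINC. A_30_P01032042 (chr3:137736327-137752677, F) had 5.44 and 5.13 in siNEG and 7.74 and 7.63 in siPINC1.0/1.6, a rise of 2.4 ± 0.158 (adjusted p = 0.0287). A_30_P01022443 (chr11:3521324-3539552, F) had 5.01 and 4.67 against 1.92 and 1.94, at least 1.49-fold lower (adjusted p = 0.0213), and its siPINC cultures, at 4.84 and 4.81, lay within the range of the controls. A_30_P01024698 (chr19:56815544-56821403, R) was at least 2.08-fold lower and A_30_P01028465 (chr1:135956616-135957485, R) at least 1.87-fold lower. NEAT1 fell at all 5 probes by 1.11 to 1.22, with 12.67 and 12.38 at A_30_P01025798. The calls of A_30_P01030369 (chr18 region), A_30_P01032042, A_30_P01024698, A_30_P01028465 and A_30_P01025798 were lost without any 1 of the 4 arrays, and that of A_30_P01022443 without any of them but siNEG −LH replicate 1.

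In hormone-treated cells, more members were called with siPINC1.0/1.6 than in undifferentiated cells, and most of them were lower. The fits were separate, with n = 3 and n = 2, so these counts do not compare the breadth of the effects. The order turned where only detected probes were tested, as given in the last section. Against siNEG +LH, 272 members (4.33%) were called, where 7.55% of the other detected probes and 3.84% of all probes were. Of these, 78 rose (all probes, 2.09%) and 194 fell (1.75%), and with the series matrix values 45 rose and 68 fell. Among members detected on all arrays 65 rose and 155 fell. Within slide 2, that is without siNEG +LH replicate 1, 120 were called, of which 72 fell. The count was also 92 without siNEG +LH replicate 2, and 108, 128 and 140 without siPINC1.0/1.6 +LH replicate 1, 2 and 3. The 55 regions with at least 2 called members all had them in the same direction.

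The rises were led by the same chr18 region. A_30_P01031770 had 1.9, 1.87 and 1.87 in siNEG +LH, where it was not detected, and 5.26, 4.6 and 4.68 in siPINC1.0/1.6, where 2 of 3 arrays detected it, at least 1.54-fold higher (limma, adjusted p = 0.00168). A_30_P01018914 (chr9:78107225-78118850, F) had 5.31, 5.48 and 5.05 against 7.32, 6.95 and 6.86, a rise of 1.76 ± 0.164 (adjusted p = 0.00232), and A_30_P01021597 (chr1:175654606-175672031, R) was at least 2.08-fold higher. These are regions that were lower with hormones. A_30_P01030527 (chr6:40693617-40720167, F), detected on all arrays, had 11.52 and 11.34 in siNEG −LH, 8.49, 8.34 and 8.48 in siNEG +LH, 10.01, 10.0 and 9.92 with siPINC1.0/1.6 and 9.14, 9.09 and 9.14 with siPINC. It fell by 2.99 ± 0.069 with hormones (adjusted p = 5.2e-10), and the +LH knockdown cells lay between, with rises over siNEG +LH of 1.54 ± 0.057 (adjusted p = 0.000245) and 0.69 ± 0.057 (adjusted p = 0.0103).

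The falls included regions that hormones had raised. A_30_P01024678 (chr6:31555210-31693051, F) was detected on 8 arrays, all of +LH siRNA groups, with 2 of 3 in siPINC1.0/1.6. It had 6.05, 6.02 and 6.1 in siNEG +LH, 4.31, 4.27 and 4.16 with siPINC1.0/1.6 and 5.6, 5.5 and 5.51 with siPINC, without overlap between any of the 3 groups. The differences were −1.81 ± 0.059 (limma, adjusted p = 0.000192) and −0.52 ± 0.059 (adjusted p = 0.0201), and the second was lost when any 1 array was left out. A_30_P01025442 fell by 1.21 ± 0.068 (adjusted p = 0.000435), from 9.21, 9.28 and 9.04 to 7.93, 8.0 and 7.97. NEAT1 fell at 4 of 5 probes, with differences of −0.49 to −0.42, and NEAT2 at 3 of 3, by 0.29 to 0.35. The NEAT1 and NEAT2 calls at their brightest probes were lost without any 1 of 5 of the 6 arrays and within slide 2. The transcript named chr17:012941161-012944859 fell at 3 of 5 probes, with differences of −0.63 to −0.5.

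With siPINC in hormone-treated cells 24 members (0.382%) were called, where 1.41% of the other detected probes and 0.681% of all probes were, and 20 rose (all probes, 0.551%) and 4 fell (0.129%; 17 and 1 with normexp background correction). Leaving out 1 array left 1 to 14, with 3, 4 and 14 without siNEG +LH replicate 1, 2 and 3 and 2, 6 and 1 without siPINC +LH replicate 1, 2 and 3. The largest rises were at A_30_P01023338 (chr1:175705225-175717250, R; 0.72 ± 0.087, limma, adjusted p = 0.0258), A_30_P01030527 and A_30_P01018420 (chr3:87757295-87774970, F; 0.67 ± 0.085, adjusted p = 0.0284). Of these calls, that of A_30_P01030527 was kept without each single array, that of A_30_P01018420 was kept only without siNEG +LH replicate 3 and that of A_30_P01023338 was lost without any 1 array. A_30_P01018420 had 9.71, 9.7 and 9.96 in siNEG +LH and 10.53, 10.43 and 10.41 in siPINC +LH. Of the 4 falls, 3 were at A_30_P01024678, A_30_P01025442 (−0.44, adjusted p = 0.0498) and A_30_P01021180 (chr5:99726262-100264512, R), which was detected on no +LH array of the siRNA groups. The fourth fall, chosen after its value was seen, was at A_30_P01031677 (chr15:102026122-102033725, R; −0.4, adjusted p = 0.0318).

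The effect of a siRNA differed between −LH and +LH cells for some members by an interaction term over the 15 siRNA arrays. For siPINC1.0/1.6, 105 members were called, with 3.19% of all probes as the background, and the effect was higher with hormones for 74 of them (all probes, 2.08%) and lower for 31 (1.11%). For siPINC it was 13, with 0.503% of all probes, of which 10 were higher (all probes, 0.365%) and 3 lower (0.138%; with normexp, 7 of 7 were higher). Leaving out siNEG +LH replicate 1 or 2 left 6 called, siPINC +LH replicate 1 or 2 left 8, replicate 3 left 5, and siNEG −LH replicate 1, siPINC −LH replicate 1 and siPINC −LH replicate 2 raised the count to 23, 24 and 23. A_30_P01020188 was lower with siPINC1.0/1.6 in −LH cells, at 6.21 and 6.08 against 7.71 and 7.65, and higher in +LH cells, at 4.95, 4.55 and 4.79 against 3.03, 3.64 and 3.47. The difference of the effects was 2.92 ± 0.299 (limma, adjusted p = 0.000595), with 2 of 3 siPINC1.0/1.6 +LH arrays and no siNEG +LH array detecting the probe. For NEAT1 the fall was smaller with hormones at all 5 probes, by 0.66 to 0.76, and at A_30_P01025798 this call was lost without any 1 of 7 of the 10 arrays.

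Overexpression of mPINC1.0/1.6 gave the largest number of called members of any comparison. This order did not hold among members detected on all arrays. There 1093 were called against LeGO-GFP and 1095 against LeGO-DCR, and 1098 for the hormone response. Against LeGO-GFP, 1910 members (30.4%) were called, where 58.3% of the other detected probes were. Without the detection criterion these shares were 13.7% of all A_30_P probes and 30.3% of all probes. Of these, 680 rose (all probes, 14.5%) and 1230 fell (15.8%), so that falls exceeded rises among the lincRNA probes, and among members detected on all arrays 335 rose and 758 fell. The median log2 difference was −0.15 over members and −0.01 over all probes. Within slide 3, without LeGO-GFP replicate 1, 1909 were called, of which 703 rose, and without LeGO-1.0/1.6 replicate 1, the array with the most detected probes, 1824 were called. Against LeGO-DCR, 1774 members (28.2%) were called, where 57.9% of the other detected probes and 29.7% of all probes were, with 654 rises (all probes, 14.5%) and 1120 falls (15.1%). The called share again grew with brightness, from 22.7% of members up to 5 to 65.3% above 11 against LeGO-GFP, below the 37.2 and 69.0% of the other detected probes. Of 420 regions with at least 2 called members, 395 had all in the same direction.

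H19 fell more than any other named transcript. A_30_P01025068 had 9.5, 9.78 and 9.8 in the LeGO-GFP cultures, 5.31, 3.22 and 4.0 with LeGO-1.0/1.6, where 2 of 3 arrays detected it, and 9.87, 10.11 and 10.3 with LeGO-DCR. The LeGO-1.0/1.6 arrays were below every other array of the series at this probe. The difference from LeGO-GFP was −5.52 ± 0.473 (limma, adjusted p = 8.22e-05) and that from LeGO-DCR −5.92 ± 0.473 (adjusted p = 5.69e-05). The 4 other probes fell as well: A_30_P01021588 had 9.72, 9.91 and 9.96 in LeGO-GFP and 3.69, 1.88 and 1.87 in LeGO-1.0/1.6, where 1 of 3 arrays detected it (adjusted p = 1.7e-05), and A_30_P01026972, A_30_P01028007 and A_30_P01028827, which no LeGO-1.0/1.6 array detected, were at least 23.6-fold, at least 17.9-fold and at least 24.5-fold lower than in LeGO-GFP. In the knockdown groups no H19 probe was called. The differences were −0.92 to 0.08 for siPINC1.0/1.6 −LH, 1.01 to 1.1 for siPINC −LH, 0.16 to 0.33 for siPINC1.0/1.6 +LH and 0.41 to 0.71 for siPINC +LH.

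TUG1, NEAT2 and NEAT1 also fell with overexpression. TUG1 fell at all 5 probes by 1.22 to 1.42, with 10.96, 10.83 and 10.88 in the LeGO-GFP cultures, 9.4, 9.66 and 9.77 with LeGO-1.0/1.6 and 11.05, 10.78 and 10.96 with LeGO-DCR at A_30_P01033104. Its LeGO-1.0/1.6 arrays were the lowest of the series at that probe. NEAT2 fell at all 3 probes by 0.75 to 0.81, and NEAT1 at 3 of 5, with differences of −0.4 to −0.34. The NEAT1 difference at A_30_P01025798 (−0.36 ± 0.107, limma, adjusted p = 0.0388) was lost within slide 3 and without LeGO-GFP replicate 1 or 2 or LeGO-1.0/1.6 replicate 2 or 3. The transcript chr17:012941161-012944859 fell at all 5 probes by 1.23 to 1.83.

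Of the regions that rose, the chr18 region was again prominent. A_30_P01031770 had 6.37, 6.41 and 6.39 in the LeGO-GFP cultures, 10.53, 10.42 and 10.36 with LeGO-1.0/1.6 and 6.33, 6.35 and 6.16 with LeGO-DCR. The rise over LeGO-GFP was 4.05 ± 0.07 (limma, adjusted p = 8.45e-08), and the 2 other probes rose by 3.9 and 3.94. A_30_P01032969 (chr4:132897264-132910714, R) had 1.89, 2.01 and 2.14 in LeGO-GFP and 6.78, 6.57 and 6.42 in LeGO-1.0/1.6, at least 5.86-fold higher. A_30_P01021884 (chr1:175653557-175671940, R) was at least 7.71-fold and A_30_P01020139 (chr1:152001112-152012796, R) at least 6.73-fold higher. Neither of the latter was detected in LeGO-GFP. Among the falls, A_30_P01021114 (chr3:41143423-41359623, F) had 6.78, 6.78 and 6.82 in LeGO-GFP and 2.36, 2.03 and 2.54 in LeGO-1.0/1.6, at least 10.9-fold lower, and A_30_P01021165 was at least 10.6-fold lower, with 6.84, 6.71 and 6.68 against 2.32, 2.11 and 2.44. Of the 5 brightest members, A_30_P01022075 (chr17:17481706-17482457, R) fell by 1.14 ± 0.047 (adjusted p = 2.3e-06), from 17.06, 16.98 and 16.99 to 15.85, 15.88 and 15.88.

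The regions nearest to mPINC on chromosome 1 were examined because 13 members in 6 regions lie within 1 Mb of it. The 3 probes of chr1:73004154-73007481 (F) showed the widest range of signal. A_30_P01027048 had 2.7 and 2.94 in siNEG −LH, 7.12, 7.22 and 7.57 in siNEG +LH, 7.88, 8.46 and 8.32 in the LeGO-GFP cultures, 2.04, 2.13 and 2.69 with LeGO-1.0/1.6 and 8.36, 8.55 and 8.49 with LeGO-DCR. It was undetected in every −LH group and in LeGO-1.0/1.6 and detected on every other array. It was at least 9.4-fold higher with hormones (limma, adjusted p = 4.51e-09), at least 29.8-fold lower in LeGO-1.0/1.6 than in LeGO-GFP (adjusted p = 1.19e-06) and at least 35.4-fold lower than in LeGO-DCR (adjusted p = 9.6e-07). In siPINC1.0/1.6 +LH, at 6.4, 6.36 and 6.12, it was lower than in siNEG +LH by 1.01 ± 0.142 (adjusted p = 0.012), and in siPINC +LH, at 7.4, 7.1 and 7.29, the difference was −0.04 (adjusted p = 0.984). Its other probes A_30_P01027123 and A_30_P01025956 were at least 12.5-fold and at least 5.56-fold lower in LeGO-1.0/1.6 than in LeGO-GFP.

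A region about as close, chr1:72983462-72987115 (F), was low in the same 2 of these groups. A_30_P01025097 had 2.7 and 3.56 in siNEG −LH, 6.81, 6.87 and 7.14 in siNEG +LH, 6.7, 6.39 and 6.74 in LeGO-GFP and 2.26, 1.9 and 2.94 in LeGO-1.0/1.6. It was at least 7.3-fold higher with hormones and at least 9.75-fold lower with overexpression, and fell by 0.9 with siPINC1.0/1.6 +LH (limma, adjusted p = 0.00256). A_30_P01022642 (chr1:73664661-73911040, R) was at least 2.38-fold higher with hormones and was not called with overexpression (−1.07, adjusted p = 0.0829). No LeGO-GFP array detected it, so that a fall with overexpression could not be measured. In the 3 remaining regions, at chr1:74084292-74138492 on both strands and at chr1:74114371-74115267, A_30_P01032937 fell with overexpression (−0.84, adjusted p = 0.024, lost without LeGO-GFP replicate 1 or LeGO-1.0/1.6 replicate 1 or 2) and A_30_P01025584 was at least 1.89-fold lower than in LeGO-DCR, while the other members there were not called in the hormone and overexpression comparisons. Whether any of these RNAs overlaps mPINC could not be tested, since a genome of the build was not used here.

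The hormone response and the overexpression comparisons share no array, and the members called in both ran mostly in opposite directions. Of the 1683 members called for the hormones and the 1910 called for LeGO-1.0/1.6 against LeGO-GFP, 938 were in both (55.7 and 49.1% of the lists). Of these 938, 798 (85.1%) were opposite: 527 rose with hormones and fell with overexpression, and 271 fell and rose. The other 140 rose in both (43) or fell in both (97). Among other detected probes called in both, 81.8% of 9114 were opposite, so the other probes of the array showed this opposition too. Against LeGO-DCR it was 802 of 927 (86.5%). Leaving out the members in which siNEG +LH replicate 1 was above both other replicates by more than 1, described below, left 794 of 925 (85.8%). The milk protein gene Csn2 was also low in siNEG −LH and LeGO-1.0/1.6, and its part in these counts was not tested.

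**Figure D4:**
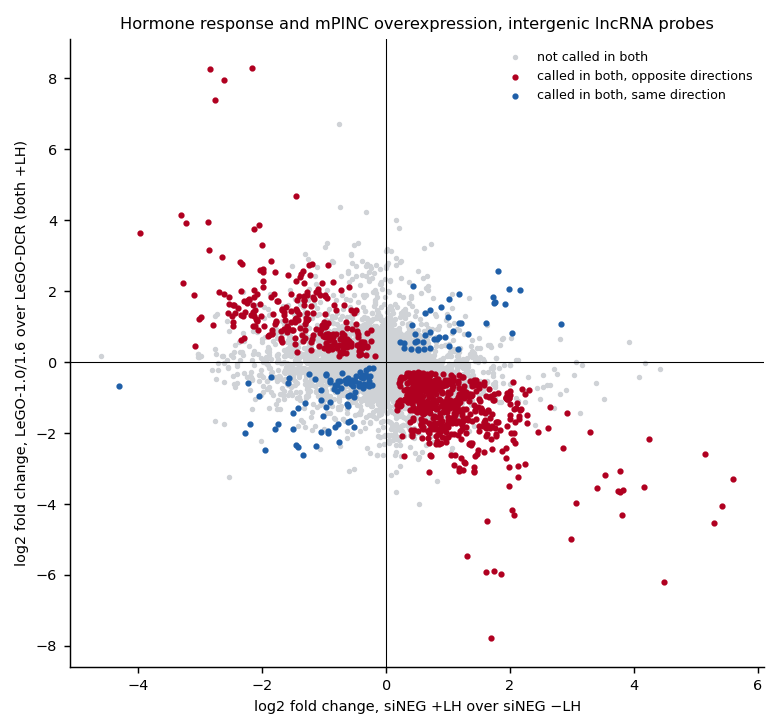
Log2 difference of siNEG +LH from siNEG −LH (x axis) against that of LeGO-1.0/1.6 from LeGO-DCR (y axis) for the members, 1 point per probe. Grey points were not called in both. Of those called in both, red points are opposite in sign and blue points the same. Of 927 members called in both, 802 are opposite, and the mPINC probes lie at the upper left, lower with hormones and higher with overexpression.

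The knockdown and overexpression comparisons, which share no array either, gave mostly the same direction. Of the 272 members called with siPINC1.0/1.6 +LH, 187 (68.8%; 9.79% of the overexpression list) were also called in LeGO-1.0/1.6 against LeGO-GFP, of which 53 rose in both, 126 fell in both and 8 (4.28%) were opposite. Among other probes 19% of 1529 were opposite. Of the 142 members called with siPINC1.0/1.6 −LH, 97 (68.3%; 5.08% of the overexpression list) were called in both, 83 in the same direction (34 up, 49 down) and 14 (14.4%) opposite, and among other probes 12.6% of 1143 were opposite. Of the 24 members called with siPINC +LH, 14 (58.3%; 0.733% of the overexpression list) were called in both, and all 14 had the same direction, while among other probes 24.4% of 312 were opposite. The counts of −LH knockdown calls rest on n = 2. The 7 A_30_P probes that the study had listed for opposite changes by knockdown and overexpression were picked on these arrays and are no independent evidence of direction. Among them A_30_P01032042 rose with siPINC1.0/1.6 −LH and fell by 2.62 ± 0.289 in LeGO-1.0/1.6 (limma, adjusted p = 0.00031). A_30_P01023412 (chr13:70815593-70820844, R) rose by 1.55 ± 0.082 (adjusted p = 0.0248) and fell by 1.14 ± 0.065, and A_30_P01017639 (chr11:93994795-94017045, F) fell by 0.75 ± 0.053 and rose by 1.02 ± 0.093.

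LeGO-DCR differed little from LeGO-GFP. Of the members, 8 (0.127%) were called, where 0.0736% of all probes were, and all 8 were lower in LeGO-DCR (0.0664% of all probes were, and 0.00718% were higher). A_30_P01017788 (chr17:88890039-88905680, R) had 6.23, 5.54 and 5.72 in LeGO-GFP and 2.74, 2.91 and 3.18 in LeGO-DCR, at least 4.29-fold lower (limma, adjusted p = 0.0247). A_30_P01033629 (chr13:64044376-64045368, R) was at least 3.68-fold lower (adjusted p = 0.0478) and A_30_P01018935 (chr3:78982395-79094345, F) at least 1.9-fold (adjusted p = 0.00639). None of the 8 was detected on all arrays, and within slide 3, without LeGO-GFP replicate 1, 6 were called, 1 higher and 5 lower. Without LeGO-GFP replicate 3 or LeGO-DCR replicate 1 the count was 4, and without LeGO-DCR replicate 2 or 3 it was 3.

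The 8 probes were high or low by slide as well as by group. On the 10 arrays formed by the 6 −LH arrays, siNEG +LH replicate 1 and LeGO-GFP replicates 1, 2 and 3, their median log2 signal was 5.19, and on 13 others it was 2.35. For 8 of 8 probes all 10 arrays lay above all 13. This split was drawn after these values were seen, and the probes were picked for being higher in LeGO-GFP. The separation is therefore a description and no test. The remaining array, siPINC1.0/1.6 +LH replicate 2, was between, at a median of 4.4. Of the 10 high arrays, 8 make up slide 1 and the other 2 are the LeGO-GFP arrays of slide 3. At A_30_P01017788 siNEG +LH had 6.0 on slide 1 and 2.59 and 1.96 on slide 2.

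**Figure D5:**
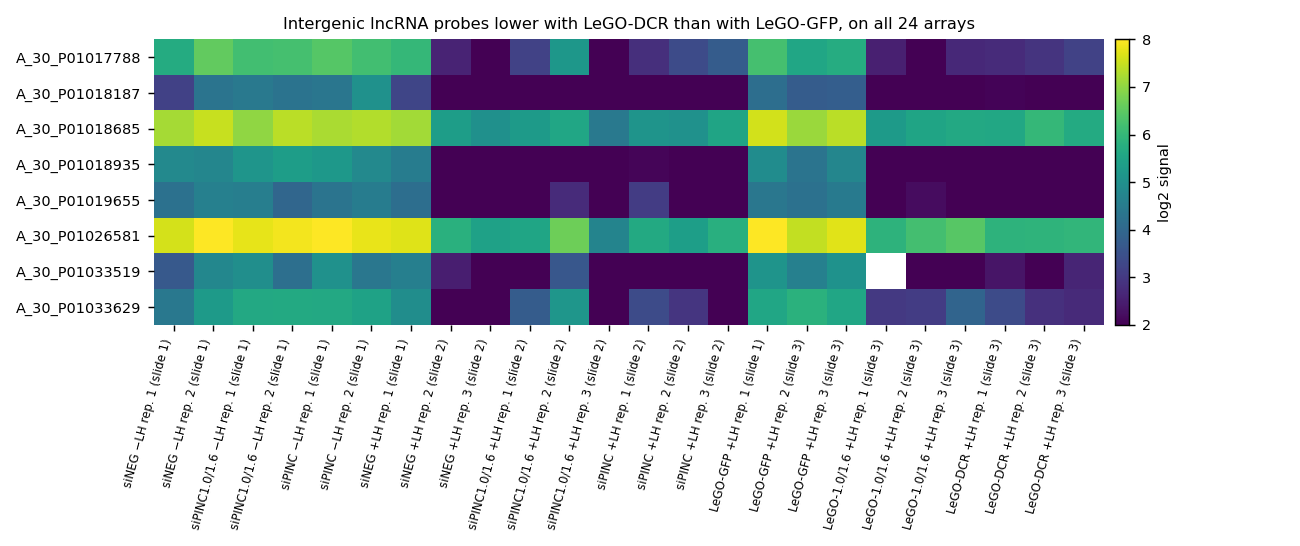
Log2 quantile-normalized signal of the 8 members called in LeGO-DCR against LeGO-GFP (rows) on the 24 arrays (columns, ordered by group and replicate), with colour from log2 2 to 8 and values outside drawn at the ends. The −LH arrays, siNEG +LH replicate 1 and the 3 LeGO-GFP arrays are high, and the white cell is an outlier spot that was left out.

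A wider set was picked by 1 part of this pattern, the gap between siNEG +LH replicate 1 on slide 1 and the others on slide 2. Its siNEG +LH values on these slides are therefore fixed by the choice and are no evidence of a slide difference. In 276 members (4.39%), against 406 of the other detected probes (1.69%), siNEG +LH replicate 1 exceeded both other siNEG +LH arrays by more than 1 on the log2 scale, and in 266 members (416 other probes) it was lower by as much. Gaps of this size were thus about as frequent in either direction. The members lay nearer to background than the other probes, and the part of this in their larger share was not tested. The median over the 276 was 5.03 to 5.19 on the 8 arrays of slide 1 and 3.02 to 4.21 on slide 2. It was 4.64 and 4.87 in the 2 LeGO-GFP arrays of slide 3, and 3.68 to 4.25 in the other lentivirus arrays. All 8 members called for LeGO-DCR were in this set, as were 37 of those called for the hormones, 128 of those called for LeGO-1.0/1.6 against LeGO-GFP (113 of them falls) and 34 of those called against LeGO-DCR. Over the whole array, 29 of the 41 probes called for LeGO-DCR had siNEG +LH replicate 1 higher by as much. Outside the set, 0 members were called for LeGO-DCR, 1646 for the hormones and 1782 for LeGO-1.0/1.6 against LeGO-GFP. Its part in the results was not tested, and slide and hormone state cannot be told apart in the −LH arrays.

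Strand added a further comparison within regions. At 560 of 1067 loci with probes on both strands, members were found on both, at 398 on 1 strand and at 109 on neither. For the hormones both strands were called at 35 loci, in the same direction at 27, and only 1 strand at 196. For LeGO-1.0/1.6 against LeGO-GFP it was 35 loci, 24 in the same direction, and 209. At chr17:39960567-39992817, both strands rose with overexpression, by 0.71 ± 0.063 at A_30_P01023888 (F; limma, adjusted p = 9.79e-05) and by 0.67 ± 0.061 at A_30_P01019912 (R; adjusted p = 0.00011). At chr7:108209996-108216032, the R probe A_30_P01030669 rose by 0.37 ± 0.044 (adjusted p = 0.000478), with 15.97, 15.93 and 15.89 against 16.3, 16.26 and 16.32, and the F probe A_30_P01031375 did not pass the test (−0.02, adjusted p = 0.883). At chr12:73838608-73862621 the R probe A_30_P01031264 fell by 0.3 (adjusted p = 0.0474, lost without any 1 array other than LeGO-GFP replicate 1) and the F probe A_30_P01020570 had a difference of 0.39 (adjusted p = 0.196). The labelling and the probes give a strand only as the array names it.

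Long noncoding RNA genes with a symbol, measured by the other probes of the array, were set beside these regions. Of 50 listed, 27 had a probe and 22 were detected by the same criterion. With hormones 17 of the 22 were called, 9 higher and 8 lower, where 52.6% of the other detected probes were called, and with LeGO-1.0/1.6 against LeGO-GFP 14 were called, 7 in each direction, where 58.3% were. Of the 6 small nucleolar RNA host genes among them (Snhg1, Snhg3, Snhg6, Snhg7, Snhg10 and Snhg12), grouped after their values were seen, 5 were lower with hormones and 5 higher with overexpression. Snhg10 was not called for the former (−0.01) and Snhg3 not for the latter (0.15, limma, adjusted p = 0.0681). Snhg12 differed by −0.46 ± 0.076 and 2.0 ± 0.056 (limma, adjusted p = 0.000907 and 4.49e-07), and Snhg1 by −0.76 ± 0.067 and 1.66 ± 0.049. Mir17hg, the host of a microRNA cluster, fell by 1.75 ± 0.15 with hormones and rose by 0.79 ± 0.117 with overexpression. The imprinted RNAs Airn and Peg13 ran the other way, with 0.94 ± 0.195 and −2.12 ± 0.245 for Airn and 0.41 ± 0.071 and −1.48 ± 0.064 for Peg13. In the siRNA comparisons 1 (siPINC1.0/1.6 −LH), 0 (siPINC −LH), 3 (siPINC1.0/1.6 +LH) and 0 (siPINC +LH) were called, and none was called for LeGO-DCR.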

How the data were processed

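RNA of 24 cultures of HC11 cells was hybridised by the authors to 1-colour Agilent 8x60K mouse arrays and read with Feature Extraction 11.0.1.1 (protocol GE1_1100_Jul11; build mm9, NCBI37, per the file headers). The deposited scanner files give intensity as a processed signal, background-subtracted by that software. The authors' deposited series matrix holds log2 values after their quantile normalization. Its order within each array was that of the median minus background signal, and its column medians were near 5.24, with centring beyond that unknown. Here the log2 processed signal was quantile normalized over the 24 arrays, without outlier spots (146 to 644 per array), and spots of a probe were averaged; no spot was saturated. Groups came from the sample labels. limma 3.58.1 (R 4.3.3) was fitted per experiment: the 6 −LH arrays, the 9 +LH siRNA arrays, the 9 lentivirus arrays, and the 15 siRNA arrays for the hormone response and interactions. P-values were adjusted by Benjamini-Hochberg over 55681 probes, and a probe was called at an adjusted p under 0.05. They measure the spread between cultures, whose number limits precision. The fits were tested on simulated data, in which 100 probes differed by 1 and 100 by 2 on the log2 scale. Of these, 40 and 64% were called for the hormone response and 47 and 57% for LeGO-1.0/1.6 against LeGO-GFP. For siPINC1.0/1.6 −LH 0 and 0% were called, so in that setting many differences of this size were missed. The rest of the 55072 simulated probes did not differ, and each probe had 1 spread pooled over all groups. In the data 15115, 16857 and 1650 probes were called in these comparisons. With few changed probes the adjustment is stricter, so the simulated shares do not give the power of the real comparisons. Other tools were pandas 2.3.3, numpy 2.4.6 and matplotlib 3.10.9 (Python 3.11.15).

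The text names the 5 brightest members, the 4 or 3 largest called rises and falls without overlap per comparison (1 per region), members within 1 Mb of mPINC, the named transcripts, both-strand regions, and probes listed by the study. Members, lists and tests were chosen with earlier results of these data known. Alternatives were upper-quartile scaling, normexp background correction, the series matrix, detected probes only, a slide term, within-slide values, a replicate block, the methods' t-test and leaving out each array. Counting only members detected on all arrays, or outside the siNEG +LH replicate 1 pattern, was chosen after seeing the data. Symbols of other probes came from RefSeq accessions (26582 matched, 12848 did not). Nearest genes were not analysed here.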

Additional observations from a re-analysis of the deposited data

Results flagged for a closer look

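The effect of a siRNA differed between +LH and −LH cells, by the interaction term in limma, in 12 tests at 11 of the probes named for it. Values are the fitted +LH effect minus the fitted −LH effect on the log2 scale, and where a group was not detected its signal is that of the background and the value is no measured size. For siPINC1.0/1.6 the effect was higher with hormones at A_30_P01020188 (2.92, adjusted p = 0.000595), A_30_P01022443 (2.82, adjusted p = 0.000992) and A_30_P01026293 (chr19:46419916-46421753, F; 1.95, adjusted p = 0.00419). A_30_P01026293, detected on all arrays, had 9.05 and 8.61 in siNEG −LH and 7.2 and 7.03 in siPINC1.0/1.6 −LH, but 6.48, 6.64 and 6.34 against 6.82, 6.55 and 6.8 in +LH cells. The effect was lower with hormones at A_30_P01020139 (−2.75, adjusted p = 0.0272), A_30_P01025862 (chr3:137736327-137752677, F; −2.64, adjusted p = 0.0103) and A_30_P01021886 (chr4:145450600-145461600, R; −2.4, adjusted p = 0.00353). A_30_P01021886 had 5.07 and 4.09 against 5.81 and 5.87 in −LH cells and 7.45, 7.55 and 7.3 against 6.28, 6.4 and 6.21 in +LH cells. A_30_P01025862 and A_30_P01020139 were detected neither in siNEG −LH nor in the +LH groups compared, A_30_P01020188 not in siNEG +LH and A_30_P01022443 not in siPINC1.0/1.6 −LH.

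For siPINC the effect was higher with hormones at A_30_P01020188 (1.68, adjusted p = 0.0461), A_30_P01023338 (1.58, adjusted p = 0.0186) and A_30_P01027577 (chr1:85117750-85129200, F; 1.2, adjusted p = 0.0438). It was lower at A_30_P01022363 (chr3:131128972-131163308, F; −2.67, adjusted p = 0.0112), A_30_P01021165 (−1.27, adjusted p = 0.0322) and A_30_P01024678 (−0.55, adjusted p = 0.0303). A_30_P01024678 was detected in neither −LH group and A_30_P01021165 not in siNEG −LH. A_30_P01022363 was detected on no siNEG −LH or siPINC +LH array and on 1 of 3 siNEG +LH arrays, and A_30_P01023338 on no siPINC −LH array. The sizes of these 4 differences were therefore not measured. A_30_P01027577, detected on all arrays, had 5.65 and 5.78 in siNEG −LH, 4.44 and 4.94 in siPINC −LH, 6.04, 5.85 and 6.06 in siNEG +LH and 6.2, 6.13 and 6.13 in siPINC +LH.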

How the results depend on the processing

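Of 2766 values under alternatives of 211 named differences, 2216 kept their direction and side of the threshold, 546 kept their direction and lost significance, and 4 turned: with upper-quartile scaling, the hormone differences of A_30_P01021243, A_30_P01031264 and A_30_P01031448 were −0.28, −0.16 and 0, and the LeGO-1.0/1.6 over LeGO-GFP difference of A_30_P01021243 was 0.11. That scaling moved the median hormone difference of all probes from 0.01 to 0.18. Counts of called members moved by over 1.5 times as follows; the cause was not tested. For the hormone response the methods' t-test gave 740 and members detected on all arrays 1098. For siPINC1.0/1.6 −LH upper-quartile scaling gave 14, normexp 379, the series matrix 17, detected probes only 580, the slide term 463, the t-test 0 and members on all arrays 85. For siPINC −LH normexp gave 9, detected probes only 2 and the slide term 47. For siPINC1.0/1.6 +LH upper-quartile scaling gave 126, the series matrix 113, detected probes only 541, the t-test 60 and slide 2 alone 120. For siPINC +LH these were 0, 0, 71, 1 and 3, and the slide term gave 52. For LeGO-1.0/1.6 members on all arrays gave 1093 against LeGO-GFP and 1095 against LeGO-DCR. For LeGO-DCR upper-quartile scaling gave 4, normexp 35, the series matrix 0, detected probes only 2, the t-test 0, members outside the siNEG +LH replicate 1 pattern 0 and members on all arrays 0. For the siPINC1.0/1.6 interaction the series matrix gave 62 and detected probes only 191. For that of siPINC upper-quartile scaling gave 0, normexp 7, the series matrix 0, detected probes only 23, the slide term 21 and members on all arrays 7.

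Same-numbered replicates did not deviate together in every comparison, so the numbers were not taken to pair cultures. A replicate block gave 0 members called for siPINC1.0/1.6 −LH, 92 and 0 for siPINC1.0/1.6 and siPINC +LH, 0 for LeGO-DCR, and 1 for the siPINC interaction, and moved the other counts by less than 1.5 times (1573, 1817, 1756 and 83 for hormones, LeGO-1.0/1.6 against LeGO-GFP and LeGO-DCR, and the siPINC1.0/1.6 interaction). Leaving out 1 array gave 1165 to 1803 for hormones, 0 to 7 and 0 to 1 for siPINC1.0/1.6 and siPINC −LH, 92 to 252 and 1 to 14 for them +LH, 1630 to 1909 and 1441 to 1703 for LeGO-1.0/1.6 against LeGO-GFP and LeGO-DCR, 3 to 8 for LeGO-DCR, and 79 to 115 and 5 to 24 for the interactions. An arm left with 1 array was assumed to vary like the others. Members near background had the lowest called shares, so small differences there were not detectable.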
